A study of Mus musculus with 6 samples.

Results

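Glycolysis was followed through 10 genes that take glucose from the cell surface to lactate: Slc2a1, Hk2, Pfkl, Aldoa, Tpi1, Gapdh, Pgk1, Eno1, Pkm and Ldha. They were chosen by name, as the rows of the count tables whose Ensembl identifiers carry these symbols in the GENCODE M21 annotation, and no measured value entered the choice. The 10 symbols match 11 of the 54446 genes listed in each library, because Aldoa has 2 identifiers. The second of these (ENSMUSG00000114515) held 0 counts in every library and is not described further. The remaining 10 rows, 1 for each gene, all passed the filter on low counts and stood among the 13172 genes tested.

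The RNA came from regulatory T cells (Treg cells, a CD4 T cell lineage defined by Foxp3 that holds immune responses in check), sorted live by CD45, CD4 and a Foxp3-GFP reporter from subcutaneous tumours of B16F10, a mouse melanoma cell line. There were 6 libraries: 3 are labelled Ythdf2 cKO (called cKO-labelled libraries here) and have the genotype Foxp3Cre Ythdf2fl/fl, and the 3 control libraries, titled WT Control, have the genotype Foxp3Cre Ythdf2fl/+, so the controls carry the Cre and 1 floxed allele too. Cre is driven by Foxp3, so Ythdf2, a reader of N6-methyladenosine in mRNA that promotes its decay, is targeted in Treg cells and not in other host cells or in the injected tumour cells. The titles also name a cage: Ythdf2 cKO replicates 2 and 3 and control replicate 3 belong to cage 2, and Ythdf2 cKO replicate 1 and control replicates 1 and 2 belong to cage 1. The labels state no age, sex or strain, nor whether the libraries come from separate animals, so p-values reflect only how far these 6 samples spread, and that spread may be technical.

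Glycolysis splits glucose into pyruvate in the cytosol and yields ATP without oxygen, and lactate dehydrogenase turns that pyruvate into lactate. Activated T cells raise the pathway through Myc and mTOR, low oxygen raises it through the transcription factor HIF-1, and Treg cells are known to lean on it less than effector T cells do. Melanoma cells, like many tumour cells, are known for strong glycolysis.

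The smallest library was Ythdf2 cKO replicate 1 with 5602053 gene counts, and control replicate 2 was the largest with 13602069. Ythdf2 itself stood at 90.1, 104 and 104 CPM (gene counts scaled to a common depth with TMM factors) in the cKO-labelled libraries, against 124, 102 and 93.1 CPM in the controls, so the groups overlapped and the transcript does not mark the genotype. The exons lost from the floxed allele are not named in the labels. Foxp3 was present throughout, at 608, 358 and 359 CPM in the cKO-labelled libraries and 449, 496 and 325 CPM in the controls. The share of mitochondrial ribosomal RNA separated the cages, at 18%, 19.2% and 42.6% in cage 2 (the highest in control replicate 3) and 9.97%, 11.1% and 12% in cage 1.

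Transcripts of melanoma cells were present in the sorted samples and differed widely between them. The 15 melanoma markers summed to 193, 2649 and 3537 CPM in Ythdf2 cKO replicates 1, 2 and 3, against 527, 648 and 5306 CPM in control replicates 1, 2 and 3. Rab27a alone stood at 128, 158 and 143 CPM in the cKO-labelled libraries and at 134, 133 and 177 CPM in the controls. It differed little between libraries and made up most of the lowest sum, that of Ythdf2 cKO replicate 1. By cage the sums were 2649 to 5306 CPM in cage 2 and 193 to 648 CPM in cage 1, and Tyr, Oca2 and Gpr143 were at 0 in Ythdf2 cKO replicate 1. Of these markers, 12 of 15 were called higher in cage 2 by the edgeR test described further on (median log2 fold change 4.26), while 6 of 8 Treg markers were called lower there (median -0.64). Over all genes tested, 7.83% were called higher in cage 2 and 3.68% lower, which is the background for each marker list. Macrophage and monocyte markers summed to 19.1 to 286 CPM in cage 2 and 6.22 to 55.4 CPM in cage 1, with 6 of the 11 tested called higher in cage 2. Fibroblast and endothelial markers summed to 59.5 to 303 CPM in cage 2 and 82.0 to 109 CPM in cage 1, with 2 of the 4 tested called higher in cage 2. Of 6 erythroid markers tested, 2 were called higher in cage 2 (sums of 19.6 to 149 CPM in cage 2 and 0.795 to 22.3 CPM in cage 1), and of 3 CD8 T and NK markers 1 was called lower there (20.7 to 25.4 CPM in cage 2 and 17.8 to 33.6 CPM in cage 1). None of 4 B and plasma cell markers (12.6 to 15.5 CPM in cage 2 and 5.48 to 19.3 CPM in cage 1) or of 1 neutrophil marker tested (0.772 to 3.79 CPM in cage 2 and 0.53 to 3.6 CPM in cage 1) was called, and Klrb1c and Elane were at 0 in every library.

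The promoters are shown first because many glycolysis genes are textbook targets of HIF-1, which recognises ACGTG or GCGTG, and of Myc, which recognises the E-box CACGTG. The 250 bases upstream of a RefSeq transcription start (build GRCm38.p6) are given for 5 genes that span the patterns described further on. Each ACGTG or GCGTG on either strand is in capitals. Where matches overlap, as in CACGTG, which holds ACGTG on both strands, the capitals run together. Ldha has 2 such starts, and only the first is shown. The 250 bases upstream of the other hold 0 ACGTG, 1 GCGTG and 0 CACGTG.
Hk2 promoter, chr6:82774455-82774704, minus strand: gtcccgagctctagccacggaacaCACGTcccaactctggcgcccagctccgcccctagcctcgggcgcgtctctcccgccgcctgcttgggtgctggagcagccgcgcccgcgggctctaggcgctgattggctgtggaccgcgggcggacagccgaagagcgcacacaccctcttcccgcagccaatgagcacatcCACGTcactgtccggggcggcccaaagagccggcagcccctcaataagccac
Pgk1 promoter, chrX:106186850-106187099, plus strand: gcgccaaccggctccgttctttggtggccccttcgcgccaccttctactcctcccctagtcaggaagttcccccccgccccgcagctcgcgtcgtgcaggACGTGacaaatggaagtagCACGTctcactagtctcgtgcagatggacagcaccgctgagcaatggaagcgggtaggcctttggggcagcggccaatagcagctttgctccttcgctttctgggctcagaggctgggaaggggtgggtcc
Ldha promoter, chr7:46845554-46845803, plus strand: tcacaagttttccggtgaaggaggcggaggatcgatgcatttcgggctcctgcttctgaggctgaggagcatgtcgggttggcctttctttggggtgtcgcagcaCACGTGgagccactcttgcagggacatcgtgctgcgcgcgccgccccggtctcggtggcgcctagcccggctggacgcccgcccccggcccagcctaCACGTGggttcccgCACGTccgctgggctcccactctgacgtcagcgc
Tpi1 promoter, chr6:124814159-124814408, minus strand: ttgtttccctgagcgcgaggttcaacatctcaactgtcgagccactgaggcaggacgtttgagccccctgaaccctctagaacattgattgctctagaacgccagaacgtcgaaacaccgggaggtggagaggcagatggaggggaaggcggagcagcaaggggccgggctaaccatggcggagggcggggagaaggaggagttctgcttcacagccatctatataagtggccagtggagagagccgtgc
Slc2a1 promoter, chr4:119108495-119108744, plus strand: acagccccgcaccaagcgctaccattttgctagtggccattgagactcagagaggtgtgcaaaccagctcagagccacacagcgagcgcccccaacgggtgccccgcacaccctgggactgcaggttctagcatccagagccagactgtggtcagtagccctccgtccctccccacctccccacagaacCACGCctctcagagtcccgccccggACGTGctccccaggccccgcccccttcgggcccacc

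Counted over the full RefSeq windows of 300 bases (250 upstream and the rest downstream of each start, both strands, all windows of a gene), ACGTG occurred in 7 of the 10 glycolysis genes and in 21.8% of all 27025 genes with such a window. GCGTG occurred in 5 of the 10 and in 35.2% of all genes. CACGTG occurred in 1 of the 10, Ldha, and in 8.09% of all genes. Every member except Tpi1 held ACGTG or GCGTG (9 of 10, against 46.7% of all genes). Aldoa and Eno1 have 3 windows each, and Pkm and Ldha 2, which gives more room for a match. All 27025 genes together have 32851 windows, expressed in Treg cells or not. The first windows of Aldoa and Pkm held neither word. A match of letters is a description and not a binding site.

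Per length of exon, the aldolase Aldoa was the most abundant of the 10 transcripts and the dehydrogenase Gapdh the least. Mean levels over the 6 libraries, in CPM per kilobase of union exon length, were 245 for Aldoa, 185 for Pkm, 150 for Ldha, 142 for Pgk1, 80.6 for Eno1, 65.2 for Tpi1, 38.9 for Slc2a1, 23.2 for Hk2, 20.6 for Pfkl and 7.43 for Gapdh. Of the 9 pairs of neighbours in this order, 8 had ranges over the 6 libraries that overlapped. Gapdh stood apart, at 6.01 to 8.77 CPM per kilobase, against 14.4 to 26.6 for Pfkl. Within each library Aldoa was above Pkm, and Pkm above Ldha, in all 6 libraries, whereas Ldha was above Pgk1 in 4 of 6. Dividing by the longest transcript in place of the union of exons raised Aldoa to 461 and Gapdh to 9.33 CPM per kilobase and put Eno1 (214) above Pgk1 (175) and Pfkl (36.9) above Hk2 (25.1).

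**Figure D1:**
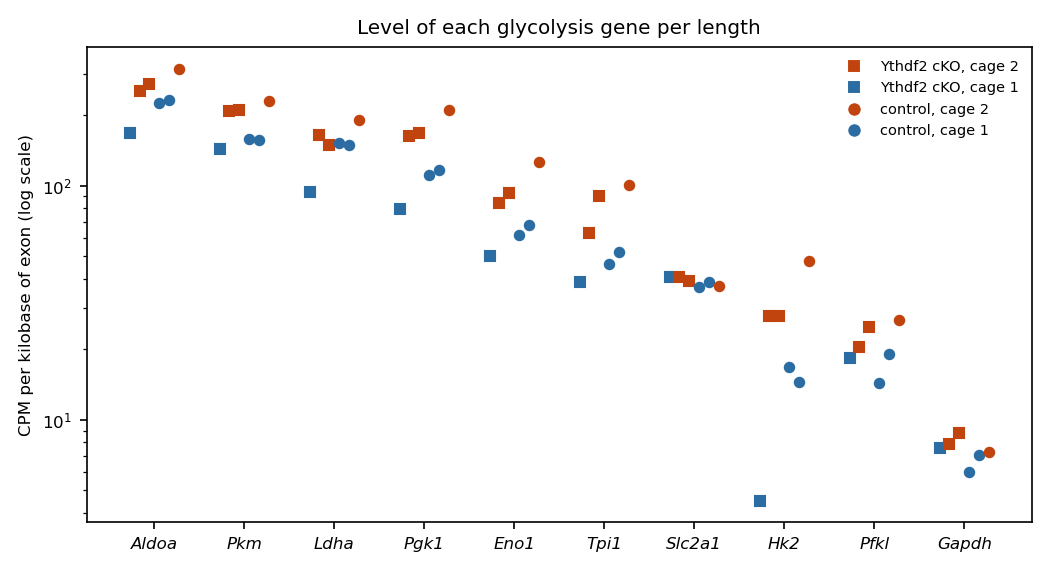
Level of each glycolysis gene per kilobase of union exon length (CPM per kilobase, log axis), 1 point per library, squares for cKO-labelled libraries and circles for controls, coloured by cage. Aldoa is highest with a mean of 245 and Gapdh lowest with a mean of 7.43; Hk2 is the most spread, between 4.5 and 47.5.

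The low level of Gapdh, a gene often used as a reference, is set here beside its sequence. All of its coding sequence is shared: 100% of the 50-base words of its coding sequence also occur in other annotated genes, and the whole transcript shares words with 222 genes. The stretch of 50 bases printed here lies inside the coding sequence and also occurs, letter for letter, in 84 other genes.
Gapdh coding stretch, chr6:125162898-125162947, minus strand (mm10): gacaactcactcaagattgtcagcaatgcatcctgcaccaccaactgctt
Reads that align to several places sit in a row of their own in the tables, which held 9.22% to 12.9% of all records. Gapdh kept 191 to 431 counts per library, 1780 in all, and the genes that share words with it held 3684 counts. Its counts are therefore uncertain, and the same holds in part for Pgk1 (100% of coding words shared, and 5 genes share words with its transcript), Eno1 (83.3%) and Pkm (52.9%). Pgk1 held 18256 counts in all. Over the whole transcript 68% of its words are shared, against 82.5% for Gapdh, and it shares words with far fewer genes, so the pair is not alike in this. Whether shared sequence lowered the Gapdh counts was not tested. Ldha (31%), Aldoa (19.5%), Tpi1 (13.7%) and Slc2a1 (3.92%) share less, and Hk2 and Pfkl share none of their coding words. Processed pseudogenes that share 50-base words with the transcripts of the members held reads too: over the 6 libraries Gm10327, which shares 417 words with Gapdh, held 453 counts, Gm6560, which shares 617 words with Pkm, held 344, and Gm11814, which shares 53 words with Ldha, held 149. A further 15.3% of the exon bases of Pkm overlap another gene on the same strand.

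The first comparison asks whether glycolysis transcripts differ between tumour Treg cells labelled Ythdf2 cKO and control Treg cells. None of the 10 genes changed past the threshold. In the edgeR quasi-likelihood test, with changes given as cKO-labelled libraries over control, every member had a Benjamini-Hochberg adjusted p of 1, and 0 of the 13172 genes (0%) were called at an adjusted p below 0.05. DESeq2 and limma-voom also called 0 genes, and 213 genes had an unadjusted edgeR p below 0.05, none of them a member. The log2 fold changes ran between -0.38 for Hk2 and 0.25 for Gapdh, with 4 above 0 and 6 below and a median of -0.074, against -0.0049 over all genes tested.

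The steadiest of the 10 was Slc2a1 (ENSMUSG00000028645, chromosome 4, 119108711 to 119137983, mm10), the glucose transporter GLUT1. It stood at 143, 143 and 138 CPM in Ythdf2 cKO replicates 1, 2 and 3, against 129, 136 and 131 CPM in control replicates 1, 2 and 3. All of the cKO-labelled libraries lay above all of the controls, by a small margin. The means were 141 ± 2.79 CPM in the cKO-labelled libraries and 132 ± 3.91 CPM in the controls (SD, n = 3 each), a log2 fold change of 0.10 (standard error 0.12).

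Hk2 (ENSMUSG00000000628, chromosome 6, 82725025 to 82774454), the inducible hexokinase that traps glucose in the cell as glucose 6-phosphate, was the least steady. It stood at 26.9, 166 and 166 CPM in Ythdf2 cKO replicates 1, 2 and 3, against 100, 86.6 and 284 CPM in control replicates 1, 2 and 3. The lowest value belonged to a cKO-labelled library and the highest to a control, and the groups overlapped. The means were 120 ± 80.4 CPM in the cKO-labelled libraries and 157 ± 110 CPM in the controls (SD, n = 3 each), and the 95% interval of the log2 fold change ran between -2.02 and 1.25. That interval, from the model without cage, includes a 2-fold change in either direction. With cage in the model it was narrower and lay below 0 (-1.75 to -0.75), and Hk2 still missed the threshold (edgeR adjusted p = 0.45).

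Pfkl (ENSMUSG00000020277, chromosome 10, 77986947 to 78010083), a subunit of phosphofructokinase, the committed step of the pathway, stood at 123, 136 and 166 CPM in the cKO-labelled libraries, against 95.8, 127 and 178 CPM in the controls. Aldoa (ENSMUSG00000030695, chromosome 7, 126795234 to 126800751), which cleaves the 6-carbon sugar, stood at 491, 742 and 792 CPM in the cKO-labelled libraries, against 658, 679 and 922 CPM in the controls. Tpi1 (ENSMUSG00000023456, chromosome 6, 124810586 to 124814296), which interconverts the resulting triose phosphates, stood at 107, 173 and 249 CPM in the cKO-labelled libraries, against 128, 144 and 277 CPM in the controls. In these 3 genes the groups overlapped, and control replicate 3 was the highest library in each.

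In the second stage of the pathway, Gapdh (ENSMUSG00000057666, chromosome 6, 125161715 to 125166467), the dehydrogenase that makes NADH, was higher in every cKO-labelled library, at 31.3, 32.5 and 36.2 CPM against 24.8, 29.2 and 30.1 CPM in the controls. Its log2 fold change was 0.25 (standard error 0.19). With Slc2a1 it made 2 of 10 members whose cKO-labelled libraries lay wholly above the controls, against 3.4% of all genes tested; none lay wholly below, against 4.22% of all genes.

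Pgk1 (ENSMUSG00000062070, chromosome X, 106187100 to 106203699), the kinase of the first ATP-yielding step, stood at 179, 366 and 377 CPM in the cKO-labelled libraries, against 250, 263 and 475 CPM in the controls. Eno1 (ENSMUSG00000063524, chromosome 4, 150236721 to 150248879), the enolase that makes phosphoenolpyruvate, stood at 270, 454 and 503 CPM in the cKO-labelled libraries, against 331, 364 and 678 CPM in the controls. Pkm (ENSMUSG00000032294, chromosome 9, 59656368 to 59679375), the pyruvate kinase of most tissues, stood at 720, 1042 and 1058 CPM in the cKO-labelled libraries, against 796, 788 and 1156 CPM in the controls. These 3 genes share an order, with Ythdf2 cKO replicate 1 the lowest library and control replicate 3 the highest.

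Ldha (ENSMUSG00000063229, chromosome 7, 46841475 to 46855627), the lactate dehydrogenase subunit that favours lactate production, stood at 310, 545 and 495 CPM in the cKO-labelled libraries, against 502, 495 and 635 CPM in the controls. Its log2 fold change of -0.27 (standard error 0.24) was the lowest after that of Hk2. Across the 10 genes, Ythdf2 cKO replicate 1 was the lowest library in 7 and control replicate 3 the highest in 8. These are also the libraries with the lowest and the highest sum of melanoma markers. With the mean of those markers as a covariate the members' median genotype change was -0.042, Hk2 stood at -0.50 (standard error 0.14) and Ldha at -0.28 (0.12), and again none was called, the lowest edgeR adjusted p being 0.89.

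**Figure D2:**
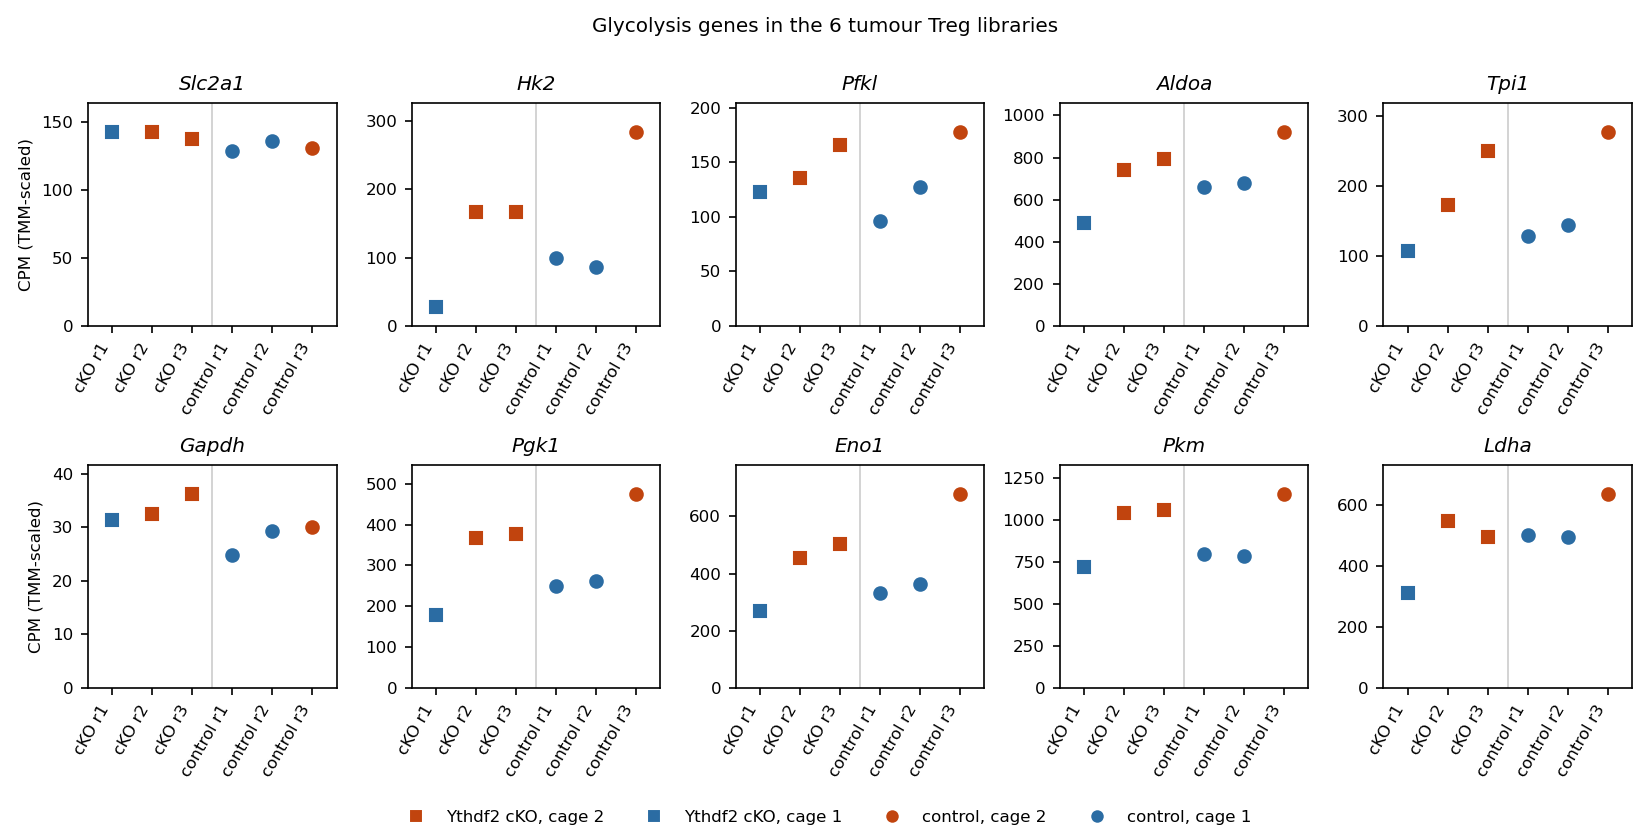
CPM of the 10 glycolysis genes in each of the 6 libraries, squares for cKO-labelled libraries (left) and circles for controls (right), coloured by cage, with every axis starting at 0. Slc2a1 keeps to 129 to 143 CPM in all libraries, whereas Hk2 ranges over 26.9 to 284 CPM and is higher in every library of cage 2 than in any of cage 1.

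Since each group holds libraries of both cages, the genotype was also compared within them. Within cage 2 the mean log2 CPM of the cKO-labelled libraries minus that of the control was below 0 in 8 of the 10 genes, with a median of -0.28 against -0.011 over all genes. In cage 1 the same difference was below 0 in 7 of the 10, with a median of -0.35 against -0.081 over all genes. With cage as a term in the edgeR model, 8 of 10 members were below 0 and the median was -0.36, against -0.041 over all genes. Hk2 then had a log2 fold change of -1.25 (standard error 0.22), Ldha of -0.49 (0.13), Pgk1 of -0.43 (0.12), Eno1 of -0.43 (0.12), Tpi1 of -0.37 (0.16) and Aldoa of -0.36 (0.12).

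Those 6 genes had an unadjusted edgeR p below 0.05 in the model with cage, all in the lower direction, against 5.9% of all genes. None was called, since the lowest Benjamini-Hochberg adjusted p among the members was 0.45 in edgeR and 0 of the 13172 genes passed. Melanoma markers moved the same way within the cages: their sum was 2649 and 3537 CPM in the cKO-labelled libraries against 5306 CPM in the control of cage 2, and 193 CPM in the cKO-labelled library against 527 and 648 CPM in the controls of cage 1. Fewer cells of a type and less RNA per cell cannot be told apart in bulk samples.

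The second comparison sets cage 2 against cage 1, with genotype in the model. Here 7 of the 10 glycolysis genes were called higher in cage 2, against 7.83% of all genes tested (1031 of 13172), and 0 were called lower, against 3.68%. The 7 were Hk2, Tpi1, Pgk1, Eno1, Aldoa, Ldha and Pkm, so the call took in hexokinase, aldolase, triose phosphate isomerase and 4 of the steps after it. Slc2a1, Pfkl and Gapdh did not pass. The median log2 fold change of the 10 was 0.55, against 0.013 over all genes. The share of mitochondrial ribosomal RNA was also higher in every library of cage 2. With mitochondrial, ribosomal RNA and haemoglobin genes taken out before TMM scaling, 7 members were again called and the median was 0.55. With total gene counts as library sizes, which include those genes, 1 member was called and the median was 0.22. The part of that share in the cage result was not tested.

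Hk2 differed most, at 205 ± 67.8 CPM in cage 2 and 71.3 ± 39.1 CPM in cage 1 (SD, n = 3 each), a log2 fold change of 2.08 (standard error 0.22, edgeR adjusted p = 0.00092). Tpi1 averaged 233 ± 53.6 CPM in cage 2 and 127 ± 18.5 CPM in cage 1, a log2 fold change of 1.00 (0.16, edgeR adjusted p = 0.0056). Pgk1 averaged 406 ± 59.7 CPM in cage 2 and 231 ± 45.2 CPM in cage 1, a log2 fold change of 0.97 (0.12, edgeR adjusted p = 0.0015). In each of these genes every library of cage 2 lay above every library of cage 1.

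Eno1 averaged 545 ± 118 CPM in cage 2 and 322 ± 47.9 CPM in cage 1, a log2 fold change of 0.89 (0.12, edgeR adjusted p = 0.0023). Aldoa averaged 818 ± 92.9 CPM in cage 2 and 609 ± 103 CPM in cage 1, a log2 fold change of 0.55 (0.12, edgeR adjusted p = 0.018). Pkm averaged 1085 ± 61.4 CPM in cage 2 and 768 ± 41.4 CPM in cage 1, a log2 fold change of 0.54 (0.11, edgeR adjusted p = 0.014). Both Eno1 and Aldoa, like Pkm, separated the cages without overlap. Ldha averaged 558 ± 70.7 CPM in cage 2 and 435 ± 109 CPM in cage 1, a log2 fold change of 0.55 (0.13, edgeR adjusted p = 0.032), but its lowest library of cage 2 (495 CPM) lay below the highest of cage 1 (502 CPM).

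Pfkl averaged 160 ± 21.4 CPM in cage 2 and 115 ± 16.9 CPM in cage 1, without overlap, yet its log2 fold change of 0.49 (standard error 0.17) missed the threshold (edgeR adjusted p = 0.095). Gapdh averaged 33.0 ± 3.07 CPM in cage 2 and 28.4 ± 3.29 CPM in cage 1 (log2 fold change 0.15, interval -0.30 to 0.59, edgeR adjusted p = 0.69). Slc2a1 averaged 137 ± 6.17 CPM in cage 2 and 136 ± 6.99 CPM in cage 1 (log2 fold change -0.021, interval -0.29 to 0.25, edgeR adjusted p = 0.93). In all, 7 of 10 members lay wholly higher in cage 2, against 15.1% of all genes.

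**Figure D3:**
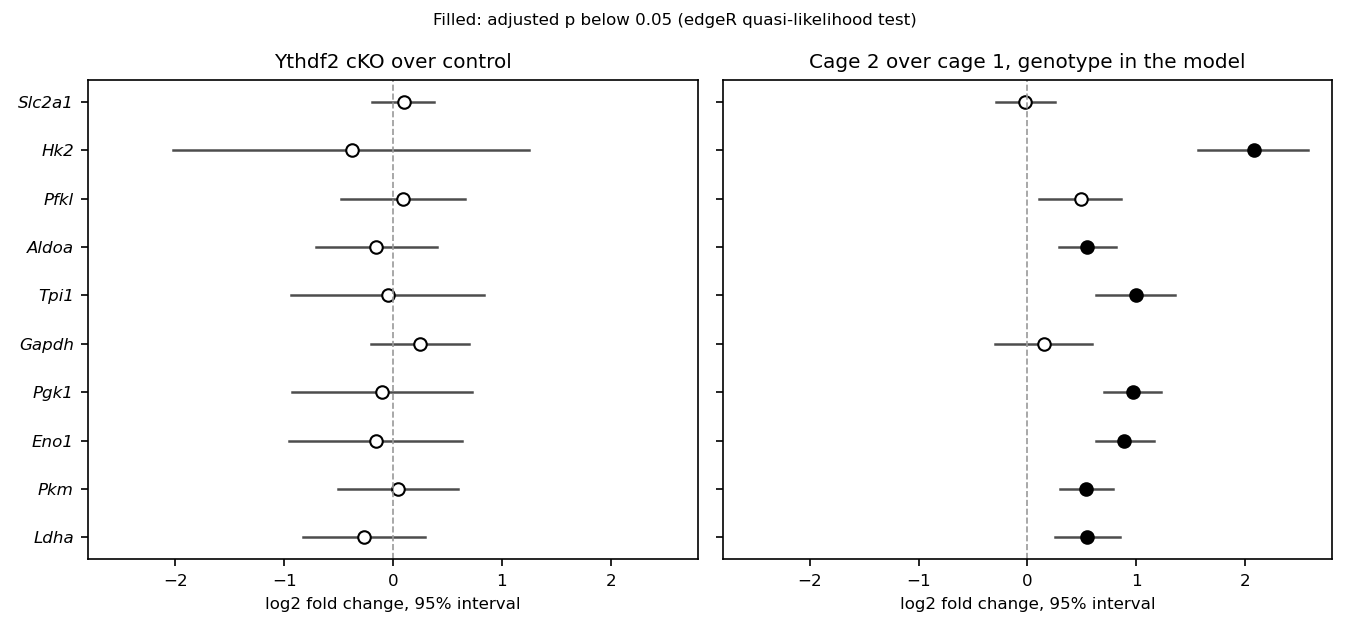
Log2 fold changes of the 10 glycolysis genes with 95% intervals, on the left for the cKO-labelled libraries over control and on the right for cage 2 over cage 1 with genotype in the model; filled points have an edgeR adjusted p below 0.05. No point is filled for genotype, and 7 are filled for cage, with Hk2 at 2.08.

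Scaling moved this result. With total gene counts as library sizes, the median cage change of all genes was -0.32 and that of the members 0.22, so the members lay above the other genes by about the same amount. The members above 0 were then 8 of 10, Gapdh (-0.19) and Slc2a1 (-0.36) lay below 0, and only Hk2 was called (adjusted p = 0.011 in edgeR), against 4.9% of all genes called higher. Over all genes that scaling gave 646 higher and 732 lower calls (46.9% higher), against 1031 higher and 485 lower (68% higher) with TMM. When mitochondrial, ribosomal RNA and haemoglobin genes were left out before total counts were taken, a setting chosen after seeing the data, 7 members were called higher, against 8.33% of all genes, and the split was 1096 higher and 242 lower (81.9% higher, median of all genes 0.10).

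Melanoma markers and the members moved together across libraries. The mean deviation of the 10 genes from their 6-library mean was -0.56, 0.16 and 0.27 on the log2 scale in Ythdf2 cKO replicates 1, 2 and 3, and -0.23, -0.14 and 0.49 in control replicates 1, 2 and 3. The mean of the 15 melanoma markers was 1.35, 5.93 and 6.26 log2 CPM in Ythdf2 cKO replicates 1, 2 and 3, and 3.61, 3.87 and 6.52 log2 CPM in control replicates 1, 2 and 3. Both measures put the 6 libraries in the same order. As a description over these 6 libraries, which share depth and scaling with both measures, Pearson's r with the melanoma mean was 0.98 for Pgk1, 0.97 for Hk2, 0.96 for Aldoa, 0.96 for Pkm, 0.94 for Eno1, 0.92 for Tpi1, 0.87 for Ldha, 0.7 for Pfkl, 0.4 for Gapdh and -0.2 for Slc2a1.

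With the melanoma mean as a covariate, 3 genes (0.0228%) and 0 members were called between the cages. The members' median log2 fold change in that fit was 0.45, with 8 of 10 above 0, against -0.27 over all genes. Standard errors were larger, at 0.45 to 0.75. Eno1 had the highest log2 fold change (1.02, standard error 0.48), Hk2 stood at 0.35 (0.59), and Ldha (-0.10, 0.49) and Slc2a1 (-0.024, 0.50) lay below 0. Cage and the share of melanoma transcripts cannot be told apart in 6 libraries.

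**Figure D4:**
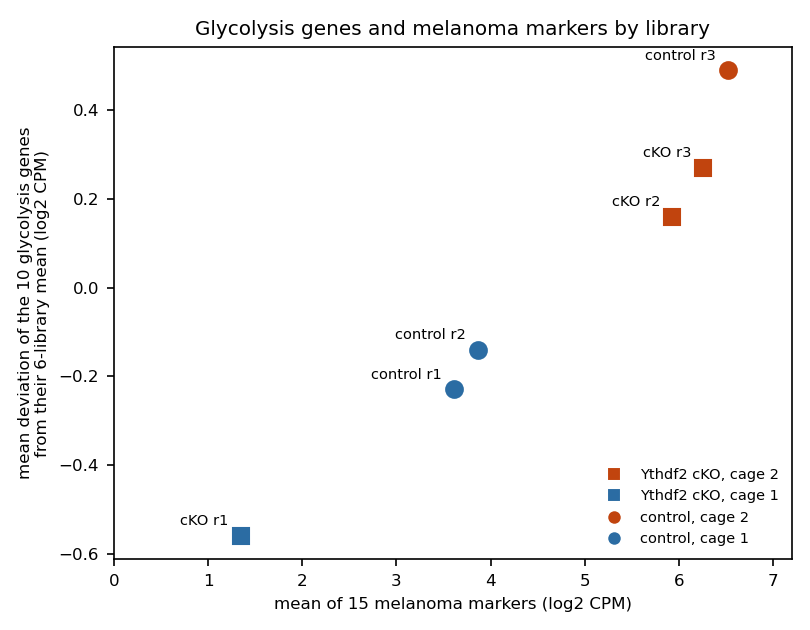
Mean deviation of the 10 glycolysis genes from their 6-library mean (log2 CPM) against the mean of 15 melanoma markers (log2 CPM), 1 point per library, squares for cKO-labelled libraries and circles for controls, coloured by cage. Ythdf2 cKO replicate 1 sits lowest on both axes (-0.56 and 1.35) and control replicate 3 highest (0.49 and 6.52).

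Leaving out single libraries changed how many members passed. Hk2, Pgk1 and Eno1 were called in all 6 fits that left out 1 library, Tpi1 in 5, Aldoa in 4, Pkm in 2 and Ldha in 2. Without Ythdf2 cKO replicates 1, 2 and 3 the members called higher numbered 4, 6 and 4, against 4.69%, 6.71% and 4.29% of all genes. Without control replicates 1, 2 and 3 they numbered 7, 5 and 5, against 6.2%, 4.38% and 6.07% of all genes. Over all genes the calls were 826, 660 and 735 without Ythdf2 cKO replicate 1, Ythdf2 cKO replicate 3 and control replicate 2, against 1516 with all libraries.

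Whether the genotype difference itself depended on the cage was tested as an interaction. None of the 10 genes passed, and 6 of the 13172 genes did (0.0456%). Hk2 came nearest, with a genotype log2 difference of -0.77 within cage 2 and -1.79 within cage 1 and an interaction of 1.03 (standard error 0.27, edgeR adjusted p = 0.22). The median interaction of the members was -0.0022, against 0.17 over all genes.

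Isoform pairs showed where the named enzymes sit beside their closest relatives. Per kilobase of union exon length, Hk2 over Hk1, the constitutive hexokinase, was 0.165, 1.08 and 1.24 in Ythdf2 cKO replicates 1, 2 and 3, against 0.669, 0.587 and 2.51 in control replicates 1, 2 and 3. By this length Hk2 exceeded Hk1 in the 3 libraries of cage 2 and in none of cage 1. Divided by the longest transcript the ratio was 0.0898, 0.586 and 0.672 in Ythdf2 cKO replicates 1, 2 and 3, against 0.363, 0.319 and 1.36 in control replicates 1, 2 and 3, so which of the pair was higher depended on the length used, while the libraries of cage 2 stayed above those of cage 1. Hk1 itself stood at 162 to 232 CPM, with a cage log2 fold change of -0.28 that did not pass (edgeR adjusted p = 0.2). Ldha exceeded Ldhb, the subunit that favours lactate use, in every library, by 8.79, 11 and 5.14 times in the cKO-labelled libraries and 10.3, 12.4 and 5.6 times in the controls. Aldoa exceeded its neuronal relative Aldoc by 24.9 to 50.1 times, and Slc2a1 exceeded the high-affinity glucose transporter Slc2a3 by 1.86 to 3.86 times. Pfkl did not exceed its isoform Pfkp throughout. By union exon length the ratio was 0.895, 0.911 and 1.18 in the cKO-labelled libraries and 0.696, 0.817 and 1.21 in the controls. By the longest transcript it ran between 0.807 and 1.41.

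Of the remaining glycolysis enzymes and isoforms, 11 of 14 were tested, and 2 were called higher in cage 2: Gpi1, the isomerase after hexokinase (log2 fold change 0.47, edgeR adjusted p = 0.041), and Pgam1, the mutase before enolase. Pgam1 stood at 7.7, 33.3 and 31.2 CPM in Ythdf2 cKO replicates 1, 2 and 3, against 23.5, 24.2 and 49.7 CPM in control replicates 1, 2 and 3, so it shared the pattern of its neighbours in the pathway (log2 fold change 1.52, standard error 0.27, edgeR adjusted p = 0.0088). The list's median was 0.47, against 0.013 over all genes, of which 7.83% were called higher. Adpgk, an ADP-dependent glucokinase, had a log2 fold change of 1.05 (edgeR adjusted p = 0.07). Pklr, the liver and red cell pyruvate kinase, was at 0 in every library.

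Against 7.83% of all genes, 1 of 7 tested glucose and lactate transporters was called higher in cage 2. This was Bsg, the chaperone of the lactate transporters, at 89.4, 214 and 248 CPM in the cKO-labelled libraries and 158, 157 and 277 CPM in the controls (log2 fold change for cage 1.09, edgeR adjusted p = 0.0036). The lactate exporter Slc16a3 had a cage log2 fold change of 0.10, the lactate transporter Slc16a1 of 0.55 (edgeR adjusted p = 0.089) and Slc2a3 of -0.59 (edgeR adjusted p = 0.16).

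None of 16 tested glycolysis regulators was called in either direction between the cages, against 11.5% of all genes. Hif1a, the oxygen-regulated subunit of HIF-1, stood at 1554, 1232 and 1097 CPM in the cKO-labelled libraries, against 1173, 1414 and 977 CPM in the controls, and its cage log2 fold change was -0.41 (edgeR adjusted p = 0.068). Myc had a cage log2 fold change of 0.49 (standard error 0.30). Epas1, which encodes HIF-2 alpha, stood at 22.8, 28 and 107 CPM in the cKO-labelled libraries, against 19.8, 20.6 and 19.6 CPM in the controls, a genotype log2 fold change of 1.40 with an edgeR adjusted p of 1. It passed only when no low-count filter was used (edgeR adjusted p = 0.034), and without Ythdf2 cKO replicate 3 its log2 fold change was 0.34. Fibroblast and endothelial markers were also highest in that library, at 303 CPM against 59.5 to 109 CPM in the others, and their part in the Epas1 value was not tested.

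Genes of the hypoxia response outside glycolysis followed the cages in part, with 5 of 15 called higher in cage 2, against 7.83% of all genes, and 0 lower (median 0.53). With the melanoma covariate 0 of the 15 were called and the median was -0.00087, against -0.27 over all genes. Vegfa, the vascular growth factor, stood at 6.06, 85.4 and 116 CPM in Ythdf2 cKO replicates 1, 2 and 3, against 26.1, 21.7 and 131 CPM in control replicates 1, 2 and 3 (cage log2 fold change 3.12, edgeR adjusted p = 0.00092). Car9, a carbonic anhydrase, stood at 0, 27.5 and 33.6 CPM in the cKO-labelled libraries, against 3.27, 6.23 and 61.4 CPM in the controls (4.48, edgeR adjusted p = 0.0028). In both genes the 3 libraries of cage 2 lay above all of cage 1. The collagen prolyl hydroxylase subunit P4ha2 (4.08), the mitophagy gene Bnip3 (1.24) and the oxidase Ero1l (0.94) were the others called. Bnip3l (-0.082), Mxi1 (-0.058) and P4ha1 (0.17), which belong to the same list, were not.

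Of 12 tested genes of pyruvate entry and lactate dehydrogenase partners, 3 were called higher in cage 2: Ldhb (1.21, edgeR adjusted p = 0.027), Dlat (0.71, edgeR adjusted p = 0.045) and Pdhx (1.09, edgeR adjusted p = 0.050, just inside the threshold), the last pair being components of the pyruvate dehydrogenase complex. Of 10 tested genes of the pentose phosphate pathway and gluconeogenesis, 0 were called, and Fbp1 was at 0 in every library. Over all genes tested, 7.83% were called higher in cage 2 and 3.68% lower. No gene of these lists was called between the genotypes.

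**Figure D5:**
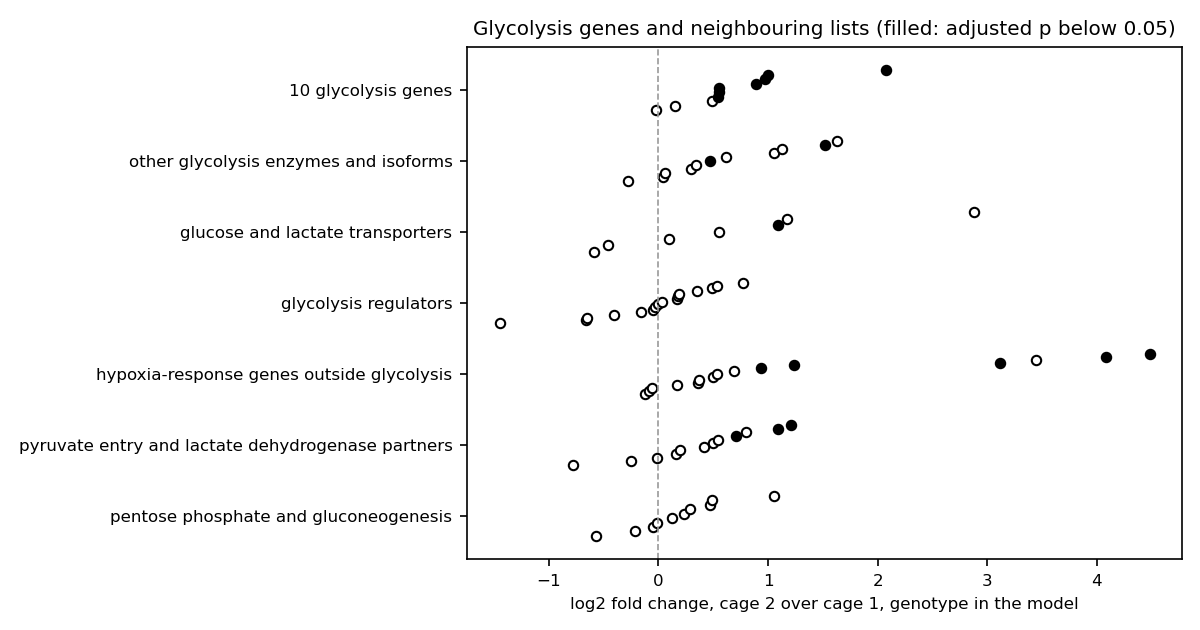
Log2 fold change for cage 2 over cage 1, with genotype in the model, of the 10 glycolysis genes and of each tested gene in 6 neighbouring lists, 1 point per gene; filled points have an edgeR adjusted p below 0.05. In the top row 7 of 10 points are filled, in the hypoxia row 5 of 15, and in the regulator row none of 16. Over all genes tested, 11.5% were called in either direction.

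The promoter letters were also set beside the cage result, with no test. ACGTG occurred in 5 of the 7 members called higher in cage 2 and in 2 of the 3 that were not called, and GCGTG in 2 of the 7 and 3 of the 3. Tpi1, with neither, had a log2 fold change of 1.00, and Slc2a1, with both, of -0.021.

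The genes whose log2 CPM followed the mean of the 10 most closely over the 6 libraries were Plin3 (Pearson's r 0.998), Plekho1 (0.996), Nisch (0.995), Ppp1r37 (0.995), Rai14 (0.994), Alg10b (0.994), Frmd4a (0.993) and Klhl42 (0.993). Among 8189 genes with a mean of at least 10 CPM, 617 (7.53%) had an r above 0.9, so an r above 0.9 over 6 libraries was common. The 8 named were picked as the highest of these, clone-like names passed over. Plin3, a lipid droplet protein, stood at 11.1, 33.3 and 37.7 CPM in Ythdf2 cKO replicates 1, 2 and 3, against 19.1, 20.4 and 47.8 CPM in control replicates 1, 2 and 3. Among the 10 themselves, r was 0.99 between Hk2 and Aldoa and 0.98 between Pgk1 and Eno1, whereas it was -0.42 between Slc2a1 and Hk2 and 0.16 between Gapdh and Hk2.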

How the data were processed

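The authors deposited raw counts of reads per gene, 1 table for each of 6 libraries, not normalized. Per the labels' protocols, a strand-preserving SMARTer kit for total RNA was used to build the libraries. Trimmomatic 0.39, HISAT2 2.1.0, HTSeq and DESeq2, and the build mm10, are named per the submitters' processing notes. No label states the annotation release or whether counting used strand, so reads of overlapping genes may not be separable.

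Symbols and coordinates came from GENCODE M21 (54409 of 54446 identifiers matched). Rows without a gene were left out of all totals and fits; they held 24.6% to 35.8% of records (no gene), 1.43% to 2.21% (ambiguous) and 9.22% to 12.9% (several alignments). The libraries held 5602053 to 13602069 gene counts, and each tested glycolysis gene had 164 to 11641 counts per library. Reads are not independent molecules. A chi-square comparison of gene counts gave at least 17.4 per degree of freedom for every pair of libraries, so none was treated as a duplicate.

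Genes passed filterByExpr (minimum count 10, minimum total count 15) and were fitted with TMM factors in edgeR 4.0.16 under R 4.3.3 (quasi-likelihood test). P-values were adjusted by Benjamini-Hochberg over 13172 genes, with a threshold of 0.05. The models held genotype alone, genotype and cage, or both with their interaction. Log2 CPM used a prior count of 2. Alternatives were DESeq2 1.42.0, limma-voom (limma 3.58.1), further scaling factors and filters, removal of genes that take many reads, a melanoma marker covariate, a block on the replicate number, a cage term, removal of single libraries and another gene length. Total counts without mitochondrial, ribosomal RNA and haemoglobin genes, and removal of libraries in the interaction, were chosen after seeing the data. The models were tested on simulated counts.

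All 10 members are named. From each list, up to 4 genes with the smallest p in the genotype comparison and up to 4 in the cage comparison were eligible. Bnip3l, Mxi1 and Pfkp lay outside that rule. Those genes, and Ero1l, P4ha1 and the other isoform partners, which the rule allowed, were added after their values were seen. The 8 genes most like the members are those with the highest r, clone-like names passed over. The members and lists were chosen with earlier results of these data known, so no list is independent evidence.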

Additional observations from a re-analysis of the deposited data

How the results depend on the processing

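No glycolysis gene was called between the genotypes under any alternative, and the lowest adjusted p of a member was 0.45, with cage as a term in edgeR. Without a low-count filter 33 genes were called between the genotypes, against 0. Direction was not stable for 7 members, among them Hk2, whose genotype log2 fold change with all libraries was the furthest below 0 (-0.38). With total gene counts the genotype log2 fold change was 0.021 for Aldoa, 0.18 for Tpi1, 0.12 for Pgk1 and 0.066 for Eno1, and in the model with cage it was -0.044 for Pfkl and -0.14 for Pkm. Leaving out each library in turn gave -0.70 to 0.39 for Hk2, -0.29 to 0.043 for Aldoa, -0.39 to 0.41 for Tpi1, -0.28 to 0.29 for Pgk1, -0.35 to 0.26 for Eno1, -0.10 to 0.38 for Pfkl and -0.058 to 0.28 for Pkm. The highest of these came without control replicate 3 for each of the 7 genes.

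Between the cages, the genes called numbered 2349 with DESeq2, 2347 without a filter, 849 without genotype in the model, 3 with the melanoma covariate and 660 to 1234 with a library left out, against 1516. The members called numbered 1 with total gene counts, 0 with the melanoma covariate, 4 without genotype in the model and 4 to 7 with a library left out, against 7. Their median was 0.22 with total gene counts, against 0.55. Gapdh was -0.19 with total gene counts. Slc2a1 was 0.014 with a mean CPM of at least 5, 0.015 without genotype in the model and 0.064 with total counts after leaving out mitochondrial, ribosomal RNA and haemoglobin genes. With the melanoma covariate Ldha was -0.10, Pgam1 -0.21, Adpgk -0.50, Myc -0.65, Car9 -3.09, Pdk1 -0.09, Pgls -0.19 and G6pdx -0.36. The cause was not tested.

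With the replicate number as a block, 46 genes and 0 members were called between the cages, the members' median was 0.50, against 0.55, Gapdh was -0.14 and Pfkl -0.026, and no genotype call changed. Deviations of same-numbered libraries correlated at 0.41, -0.236 and 0.547. Libraries of 1 cage with different numbers correlated too, at 0.459 (Ythdf2 cKO replicate 1 with control replicate 2) and 0.266 (Ythdf2 cKO replicate 2 with control replicate 3). The numbers were therefore not read as pairs.

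The interaction called 54 genes with DESeq2, 30 with total gene counts and 2 to 16 with a library left out, against 6, and its median over the members was 0.54 with total gene counts, against -0.0022. Under that scaling Slc2a1 was 0.54, Pfkl 0.16, Tpi1 0.49, Gapdh 0.52, Eno1 0.40 and Pkm 0.54. Leaving out a library gave -0.033 to 0.048 for Slc2a1, -0.33 to 0.21 for Tpi1, -0.13 to 0.10 for Gapdh and -0.0042 to 0.03 for Pkm. Without Ythdf2 cKO replicate 1 or control replicate 3 the interaction could not be fitted, since each is the only library of its genotype in its cage. With the longest transcript as length, levels were 41.9 for Slc2a1, 36.9 for Pfkl, 461 for Aldoa, 112 for Tpi1, 9.33 for Gapdh, 214 for Eno1, 381 for Pkm and 274 CPM per kilobase for Ldha. Where leaving out a library leaves 1 in an arm, that library is assumed to vary like the others.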
